A study of Cicer arietinum with 8 samples.

Results

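The response of roots of the salinity tolerant chickpea genotype JG 62 (ST) to salt is described here, as the FPKM of each locus in ST salinity stress against ST control. FPKM is the number of sequenced fragments assigned to a transcript, divided by transcript length and by how many fragments the library mapped. The loci followed were those whose FPKM reached 1 in the stressed or the control roots, which holds for 20212 of the 30692 loci in the deposited table. Of the others, 7527 were listed at 0 in both ST groups and 2953 stayed under FPKM 1. At that limit, Ca_03921 was just inside, with FPKM 0.912 under stress and 1.0018 in the control, and Ca_18224 was just outside, with 0.314 and 0.99959.

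The study sequenced root RNA of the ST genotype and of the salinity sensitive genotype ICC V2 (SS), each under salinity stress and under control conditions. The groups were ST salinity stress, ST control, SS salinity stress and SS control, with 2 libraries in each. Seedlings were raised in a growth chamber, those of the stressed groups received 80 mM NaCl on alternate days for 6 days from an age of 12 days, and those of the control groups were watered without salt. Roots were taken at 18 days, although the text of the series speaks of seedlings of 17 days. Each genotype is represented by a single cultivated line, and whole roots were used, so that fewer cells of a type and less RNA per cell cannot be told apart. The characteristics of the libraries name no tissue beyond the word root in their source, and no root marker gene could be looked up, because the table pairs its loci with Ca_ numbers only.

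Salt in the soil lowers the water potential around the root and brings in sodium, which competes with potassium. Roots of many plants answer by making compatible solutes such as inositols, by adjusting ion and nutrient transporters, and by altering growth of primary and lateral roots. Root transporters for iron and phosphate are known to respond to salt in several species.

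The authors combined both libraries of a group into 1 value per locus. Spread between libraries, an SD or a test cannot be derived from these combined values, so no difference below has a replicate check here. The study tested these libraries itself with Cuffdiff, and the outcome of that test is not used. Sequencing depth is likewise unknown here. In each ST column the top 10 loci took 9.26% to 9.62% of the total FPKM. A value of exactly 0 can be a failed estimate and is described as listed at 0.

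Most loci had similar FPKM in stressed and control roots. Of the 20212 loci, 17500 (86.6%) differed by less than 1.5-fold, the fold limit that the study set beside a p-value for its differentially expressed genes, and 2712 (13.4%) differed by that much or more. Higher under salinity stress were 1574 loci (7.79% of all) and lower were 1138 (5.63%). At 2-fold the counts were 582 loci higher (2.88%) and 443 lower (2.19%), together 5.07%. The median FPKM was 16.3 in ST salinity stress and 15.8 in ST control. Over the 20083 loci above 0 in both, the log2 ratio of stress over control had a median of 0.04, the middle 50% of loci lay between -0.13 and 0.22, and 5% to 95% of them lay between -0.62 and 0.74.

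Large ratios were rare. Among the higher loci, 992 were between 1.5-fold and 2-fold higher, 415 between 2-fold and 4-fold, 65 between 4-fold and 8-fold, and 25 at 8-fold or more. The lower loci held 695, 338, 44 and 9 in the same classes. A further 77 loci were listed at 0 in ST control and 52 at 0 in ST salinity stress. The changed classes had lower medians of expression than the loci within 1.5-fold. The FPKM of the higher group had a median of 19.5 among loci within 1.5-fold, of 10.2 and 5.82 among those 1.5-fold to 2-fold higher and lower, and of 5.72 and 5.56 among those at least 8-fold higher and lower, of which 15 of 25 and 5 of 9 reached FPKM 5. At the limit itself, Ca_03233 counted as higher with FPKM 7.54 under stress and 5.03 in the control, and XLOC_025117, with 5.25 and 3.50, lay just under it.

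**Figure D1:**
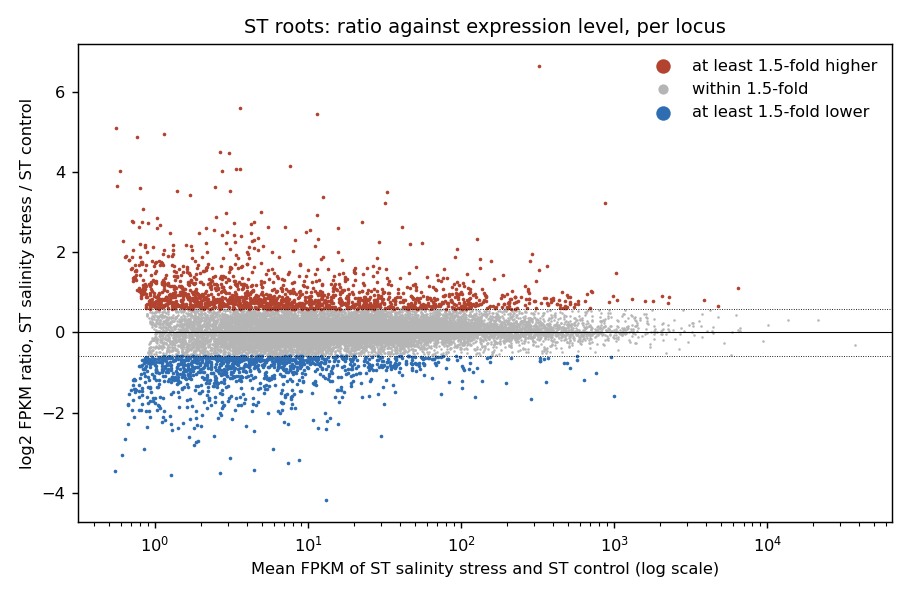
Each point is a locus of the ST roots above FPKM 0 in both groups, placed by its mean FPKM (horizontal axis, log scale) and its log2 FPKM ratio of ST salinity stress to ST control (vertical axis), with dotted lines at 1.5-fold. The 1497 higher loci are red, the 1086 lower ones blue and the rest grey, and the spread of the ratio widens toward low FPKM. The empty wedge at the far left comes from the requirement of FPKM 1 in a group.

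Among highly expressed loci, those higher under stress outnumbered those lower. Of the 2214 loci with a mean FPKM of 100 or more in the ST groups, 159 (7.18%) were at least 1.5-fold higher and 33 (1.49%) lower, so that 82.8% of the changed loci in this class were higher. For the 6712 loci with a mean of 20 to 100 the counts were 283 and 129, which gave 68.7% higher. The directions were closer to even among the 6931 loci with a mean of 5 to 20 (371 higher and 308 lower) and the 4038 with a mean of 1 to 5 (619 higher and 556 lower). Under median-ratio scaling of the columns, 78.8% of the changed loci in the top class and 64.0% in the next were higher, whereas the classes of 5 to 20 and 1 to 5 turned to 48.1% and 49.3%. Classes set by the mean of the SS groups, which do not enter the ST ratio, gave 79.2% higher at FPKM 100 or more, from 122 higher and 32 lower loci. With these classes, 66.3% of the changed loci were higher at 20 to 100. At 5 to 20 the counts were 398 higher and 269 lower (59.7% higher), less even than above, and at 1 to 5 they were 581 and 517. In the SS genotype, the class of FPKM 100 or more had 43 loci higher and 46 lower under stress (48.3% higher), and 49 higher and 41 lower (54.4% higher) under the scaling. The difference between the genotypes in this share was not tested.

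The share of loci past 1.5-fold was largest where expression was low. It was 29.1% for a mean FPKM of 1 to 5, 9.80% for 5 to 20, 6.14% for 20 to 100 and 8.67% for 100 or more. The 317 loci with a mean under 1 passed the filter on the strength of a single group, so their values had to differ, and their 80.1% describes the filter. The central 90% of log2 ratios ran from -1.01 to 1.12 at a mean FPKM of 1 to 5 and from -0.35 to 0.54 at 20 to 100.

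**Figure D2:**
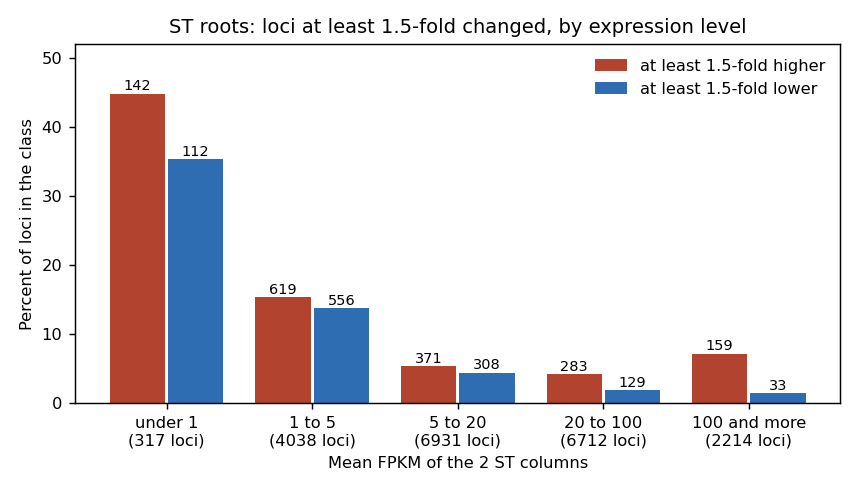
Percent of loci at least 1.5-fold higher (red) and lower (blue) in ST salinity stress than in ST control, for classes of the mean FPKM of both ST groups, with the number of loci above each bar. Higher loci outnumber lower ones by 159 to 33 at FPKM 100 and more, while the counts are nearly level at 1 to 5, with 619 and 556.

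Of the genes that the study names by number, 17 could be found, at 18 loci, all of them at FPKM 1 or more. The study picked most of them for their change in these same libraries, so their directions are no independent evidence. In the ST genotype 8 loci were at least 1.5-fold higher (7.79% over all loci), 5 were lower (5.63% over all loci) and 5 stayed within 1.5-fold, with a median log2 ratio of 0.35 against 0.04 over all loci.

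The genes that the study links to iron were mostly lower in stressed ST roots. Ca_25099 encodes a MATE efflux protein of the FRD3 kind, which in Arabidopsis exports citrate into the xylem and keeps iron soluble there. Its FPKM was 1.39 in ST salinity stress and 10.4 in ST control, 7.49-fold lower, and 8.89 in SS salinity stress and 26.5 in SS control. The study links homologs of the bHLH transcription factor genes Ca_20616 and Ca_07196 to the control of root iron transport. Ca_20616 had 3.40 under stress and 5.97 in the control of the ST genotype, 1.76-fold lower. The other bHLH gene, Ca_07196, had 7.60 and 14.8, 1.94-fold lower. Both bHLH genes were also lower in the stressed SS roots, by 1.76-fold and 1.83-fold. The 4th gene of this group, Ca_02410, encodes another MATE efflux protein and went the other way in the ST genotype. Its FPKM was 7.43 in ST salinity stress and 3.95 in ST control, 1.88-fold higher, against 3.47 in SS salinity stress and 7.34 in SS control.

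Genes tied to root growth and phosphate moved in both directions. Ca_02137 encodes a patatin-related phospholipase A, an enzyme that releases fatty acids from membrane lipids and whose loss reduces lateral roots in Arabidopsis. It had FPKM 15.3 in ST salinity stress and 35.7 in ST control, 2.34-fold lower, with 12.3 and 11.2 in the stressed and control SS roots. The ST control roots thus held the highest value of the 4 groups. Ca_12085, a phosphate transporter of the Pht1 family, had 185 in ST salinity stress and 108 in ST control, 1.72-fold higher, and was 1.24-fold higher in the SS genotype (143 and 115).

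Of the 4 loci grouped here as stress-related, 2 were higher in the stressed ST roots and 2 stayed within 1.5-fold. Ca_09586 encodes myo-inositol-1-phosphate synthase, which makes the first intermediate of inositol synthesis. It had FPKM 10.3 in ST salinity stress and 5.86 in ST control, 1.76-fold higher, and was 1.86-fold higher in stressed SS roots (16.6 and 8.94). Ca_13970, a transmembrane protein whose Arabidopsis homolog acts in osmotic and oxidative stress, had 286 in ST salinity stress and 141 in ST control, 2.03-fold higher. In the SS genotype the same gene stood at 169 under stress and 286 in the control. The WRKY33 homolog Ca_09442, a transcription factor needed for root growth in salt in Arabidopsis, was within 1.5-fold in the ST genotype (80.1 and 62.6) and 2.45-fold lower in stressed SS roots (21.4 and 52.4). The nuclease homolog Ca_12433 (CAN2) had 28.9 and 25.7 in the stressed and control ST roots, within 1.5-fold, and 18.1 and 27.8 in the SS roots.

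Among the remaining named genes, the leucine-rich repeat gene Ca_22105 (PIRL6) had FPKM 101 in ST salinity stress and 41.0 in ST control, 2.45-fold higher, and was 1.89-fold higher in the SS genotype. The lipoxygenase homolog Ca_10731, of the enzyme family that starts oxylipin synthesis, was 1.73-fold lower in the ST genotype (6.73 and 11.6) and 2.35-fold lower in SS. Higher in stressed ST roots were also Ca_25894 (5.91 and 3.39) and Ca_13125 (5.11 and 2.58), at levels near FPKM 5. The name Ca_20130 is attached to 2 loci of the assembly, with 414 and 251 at XLOC_009920, 1.65-fold higher, and 226 and 178 at XLOC_011723, within 1.5-fold. Ca_12185 (26.0 and 20.6) and the locus shared by Ca_18458 and Ca_18464 (140 and 116) stayed within 1.5-fold. The study reports Ca_18464 as lower in stressed ST roots and higher in stressed SS roots. The shared locus was 1.21-fold higher in ST and 1.25-fold higher in SS, and its FPKM cannot be split between the 2 genes.

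**Figure D3:**
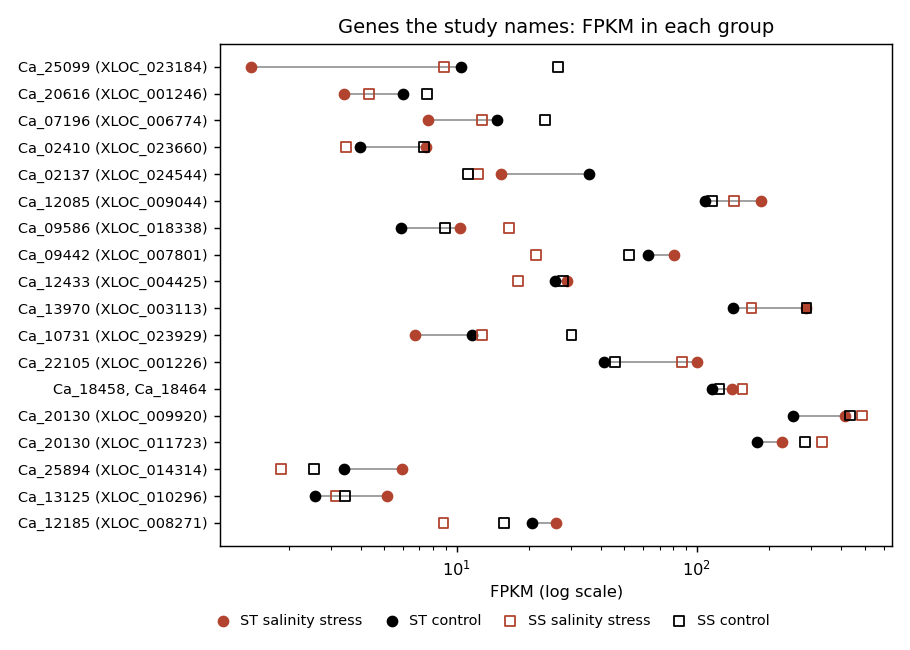
FPKM (log scale) of the 18 loci of genes named by the study in ST salinity stress (filled red), ST control (filled black), SS salinity stress (open red) and SS control (open black), with a line between the ST values. Ca_25099 has the widest ST gap, 1.39 against 10.4, and the stressed ST value of Ca_02410 lies above its control while the stressed SS value lies below.

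The largest ratios are given for loci at FPKM 5 or more in the higher group and above 0 in both. On the higher side the 10 largest ran from 11.4-fold to 100-fold, and 5 of these loci carry a gene name. Ca_14770 stood first, with FPKM 636 in ST salinity stress and 6.34 in ST control. Its SS values were 504 under stress and 769 in the control, so that the ST control is the one low value of the 4. Ca_04937 had the same shape, with 14.4 in ST salinity stress and 0.805 in ST control, against 12.6 and 11.3 in the SS groups. Ca_01016 was 48.7-fold higher (7.0 and 0.144) and also 9.57-fold higher in stressed SS roots (3.46 and 0.361). Ca_09671 was 43.7-fold higher (22.4 and 0.513), and its SS values were both under FPKM 0.3. Ca_12134 was 16.4-fold higher (5.20 and 0.318). The files and the study give no function for these 5 genes. The unnamed loci were XLOC_025123, XLOC_008890, XLOC_003415, XLOC_001508 and XLOC_025521, between 11.4-fold and 22.5-fold higher and all under FPKM 7 in the stressed roots. The next locus after the 10 was XLOC_023262, at 11.3-fold. Because the control values were near 0, these ratios depend on the pseudocount. With 1 added to each FPKM, 9 of the 10 ratios shrank by more than 1.5-fold (all but Ca_14770), to between 4.48-fold and 15.5-fold, and Ca_01016 was 6.99-fold higher.

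On the lower side the 10 largest ratios ran from 5.21-fold to 18.2-fold, and 8 of the loci have no gene name. XLOC_012599 stood first, with FPKM 1.35 in ST salinity stress and 24.7 in ST control, and 21.0 and 11.9 in the stressed and control SS roots. XLOC_018917, XLOC_025711, XLOC_000101 and XLOC_023513 followed, between 8.85-fold and 10.7-fold lower. The MATE gene Ca_25099, described above for its link to iron, was 6th by ratio. Ca_22974, for which no function is given, was 6.03-fold lower, with 8.48 in ST salinity stress and 51.2 in ST control. Both its SS values lay near the stressed ST value, at 7.72 under stress and 11.2 in the control. XLOC_005902 was 5.28-fold lower in the ST genotype (4.17 and 22.0) and 5.45-fold lower in SS (8.33 and 45.4). XLOC_016025 and XLOC_015951 were lower in stressed ST roots, by 5.54-fold and 5.21-fold, and higher in stressed SS roots, by 3.29-fold and 3.59-fold. With 1 added to each FPKM the 10 ratios ran from 3.62-fold to 10.9-fold, and 6 of them shrank by more than 1.5-fold. Among these 6 was Ca_25099, which became 4.77-fold lower.

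**Figure D4:**
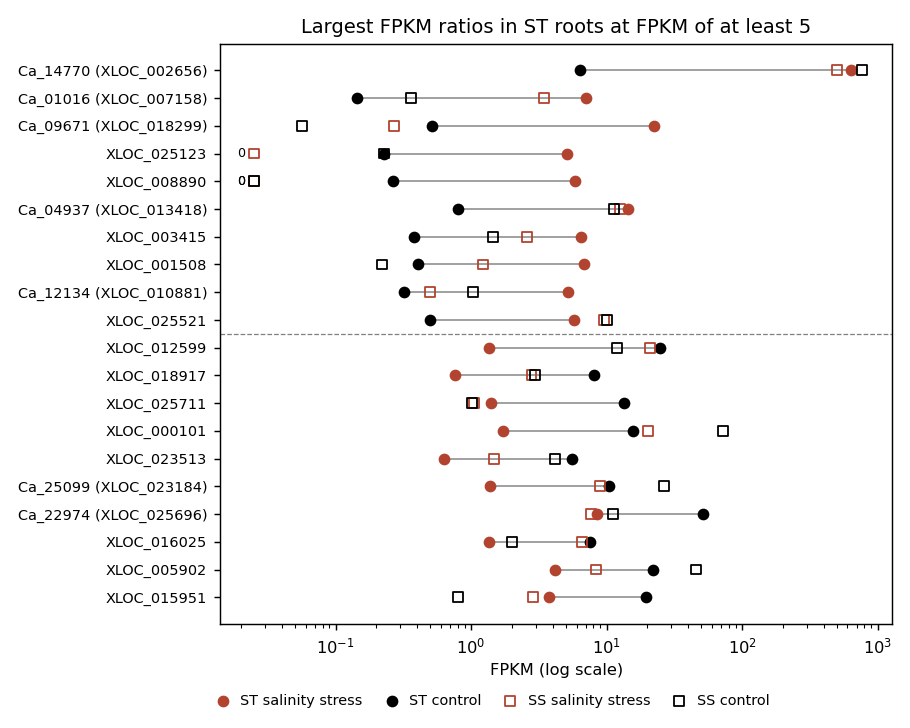
FPKM (log scale) of the 10 loci with the largest ratio upward (above the dashed line) and downward (below it) in ST salinity stress (filled red) against ST control (filled black), with the SS groups as open squares. SS values listed at 0 are drawn at the left and marked 0. In Ca_14770 and Ca_04937 the stressed ST value lies close to both SS values and the ST control far below them.

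Some strongly expressed loci also had large ratios, which were looked up after their values were seen. With FPKM 20 or more in the higher group, 16 loci were at least 4-fold higher and 7 at least 4-fold lower. Over all 20212 loci, 65 (0.32%) were 4-fold to 8-fold higher and 25 (0.12%) at least 8-fold higher. The lower loci in the same classes were 44 (0.22%) and 9 (0.04%). The total of loci at FPKM 20 or more is not given, so whether 16 against 7 is unusual was not tested. XLOC_000008, without a gene name, had FPKM 1582 in ST salinity stress and 169 in ST control, 9.34-fold higher, and was listed at 0 in SS salinity stress with 1295 in SS control. Ca_04304 had 212 in ST salinity stress and 42.4 in ST control, 5.0-fold higher, with 76.9 and 74.4 in the SS groups. Ca_03341 was 4.23-fold higher (151 and 35.8), Ca_14633 4.59-fold (75.6 and 16.5) and Ca_02986 6.16-fold (70.7 and 11.5). Ca_02986 and Ca_14633 had SS values of 9.82 to 15.1, with less than 1.2-fold between stress and control. XLOC_023262 had 60.5 and 5.35 in the ST genotype and was listed at 0 in both SS groups. Lower in this set were Ca_22974 (above), Ca_23725 (5.20 and 22.7) and Ca_22970 (5.12 and 20.6).

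Loci listed at 0 in a group get no fold. The 77 loci listed at 0 in ST control had a median FPKM of 2.46 in ST salinity stress, and 15 of them reached FPKM 5 there. Ca_23991 had the highest value, 55.4, yet it had 426 in SS salinity stress and 358 in SS control. Ca_20640 followed with 28.7, then Ca_19091 with 18.8, XLOC_027976 with 18.0 and Ca_14005 with 11.7. XLOC_027976 and Ca_14005 were listed at 0 in both SS groups as well, as were 25 of the 77 loci. The 52 loci listed at 0 in ST salinity stress had a median of 2.07 in ST control, and 9 of them reached FPKM 5. Highest were Ca_27838 (13.0 in ST control, 72.7 and 54.1 in stressed and control SS roots), XLOC_022688 (10.8), XLOC_029261 (10.2), XLOC_000003 (9.09) and XLOC_027218 (7.15). XLOC_029261 had 80.7 in SS salinity stress and 112 in SS control. In each direction, 3 loci were listed at 0 in a single ST group and had FPKM 5 or more in the 3 other groups.

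Summed over all 20212 loci, FPKM was greater by 87969 in ST salinity stress. Loci within 1.5-fold contributed 48582 of this, those at least 1.5-fold higher 51890, and those at least 1.5-fold lower -12503. These sums were taken without scaling of the columns and depend on it. The median-ratio factors were 1.021 for ST salinity stress and 0.995 for ST control, and dividing by them would make the difference smaller. It is therefore no measure of the amount of RNA in the roots. Of the sum over the higher loci, 3 loci made up 17.4% and 10 loci 32.6%. The first was XLOC_019945, without a gene name, with FPKM 8826 in ST salinity stress and 4075 in ST control, and 3369 and 4523 in the SS groups. Ca_13561 had 5870 in ST salinity stress and 3732 in ST control, 1.57-fold higher, and Ca_21892 had 4915 and 2789, 1.76-fold higher. Both were within 1.5-fold in the SS genotype. Of the sum over the lower loci, 10 loci made up 32.8%. Ca_18462 had 499 in ST salinity stress and 1499 in ST control, 3.0-fold lower, whereas it had 1256 in SS salinity stress and 489 in SS control. Ca_07447 had 505 and 1028, 2.04-fold lower, and Ca_03007 had 390 and 888, 2.28-fold lower, in the stressed and control ST roots.

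The 5 most abundant loci stayed within 1.5-fold. Ca_05165 had FPKM 33732 in ST salinity stress and 41673 in ST control, 1.24-fold lower. The locus of Ca_21944 and Ca_21945 had 23851 and 19333, Ca_15740 had 14992 and 12215, Ca_13501 had 10809 and 9496, and XLOC_025097 had 8637 and 10004.

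Loci without a gene name had a larger share past 1.5-fold than loci with a gene name. Among 2727 such loci, 378 (13.9%) were higher and 355 (13.0%) lower. Among 16933 loci with a single gene name, 1174 (6.93%) were higher and 770 (4.55%) lower, and among 552 loci with several names 22 (3.99%) were higher and 13 (2.36%) lower. Unnamed loci were expressed at a lower level, with a median FPKM in the higher group of 9.16 against 18.8 for those with 1 name. Restricted to FPKM 5 or more, 21.1% of unnamed and 7.66% of single-name loci were past 1.5-fold. The level still differed there, with medians of 15.5 and 25.6, and its part in these shares was not tested. No gene name was attached to 44% of the 25 loci at least 8-fold higher, 77.8% of the 9 at least 8-fold lower, 32.5% of the 77 listed at 0 in ST control and 17.3% of the 52 listed at 0 in ST salinity stress, against 11.4% of those within 1.5-fold.

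The ST values were also placed among those of all 4 groups. Of the 1574 higher loci, ST salinity stress had the highest FPKM of the 4 groups at 1077 (68.4%) and ST control the lowest at 891 (56.6%), with both at 449. Of the 1138 lower loci, ST salinity stress was the lowest of the 4 at 677 (59.5%) and ST control the highest at 778 (68.4%), with both at 359. Only ST salinity stress held such an extreme place at 628 of the higher and 318 of the lower loci, and only ST control at 442 and 419. For the 167 loci at least 4-fold higher or listed at 0 in ST control, ST salinity stress was the highest of the 4 at 120 (71.9%) and ST control the lowest at 89 (53.3%). For the 105 loci at least 4-fold lower or listed at 0 in ST salinity stress, ST salinity stress was the lowest at 60 (57.1%) and ST control the highest at 74 (70.5%). The ST ratio itself fixes part of these counts, so they are given as a description.

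The SS ratio of the same loci, which shares no library with the ST ratio, was followed across the ST classes at the 19745 loci also reaching FPKM 1 in an SS group. Over all of these, 4.11% were at least 1.5-fold higher and 5.69% lower in stressed SS roots. Of the loci 2-fold to 4-fold higher in ST, 75 (20.8%) were at least 1.5-fold higher and 65 (18.0%) lower in SS, with a median SS log2 ratio of 0.06. Of the loci 2-fold to 4-fold lower in ST, 35 (12.2%) were higher and 88 (30.8%) lower in SS, with a median of -0.24. Among those 1.5-fold to 2-fold higher in ST, 14.9% were higher and 10.9% lower in SS, and among those 1.5-fold to 2-fold lower, 7.70% were higher and 21.3% lower. At loci within 1.5-fold in ST both shares were smaller, with 2.68% higher and 3.88% lower in SS. The unequal FPKM level of the classes moves with these shares, since the changed classes hold weaker loci, and its part in the result was not tested.

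**Figure D5:**
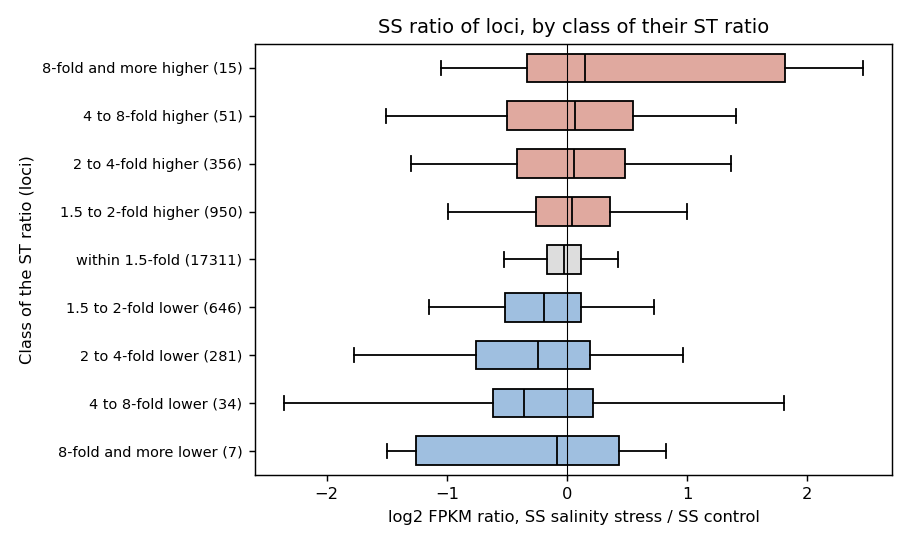
Distribution of the log2 FPKM ratio of SS salinity stress to SS control for loci grouped by their ST ratio, with the number of loci in brackets (boxes, middle 50%; line, median; whiskers, 5th to 95th percentile). Medians stay near 0 in the classes higher in ST, at 0.06 for 2 to 4-fold, and are -0.19, -0.24, -0.36 and -0.08 from the smallest to the largest fall in ST, the last from 7 loci.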

How the data were processed

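RNA-seq values of roots were analysed for the ST genotype (2 groups of 2 libraries), with the SS genotype set beside them. The authors sequenced single ends of 49 bp, removed reads under a Phred quality of 20, aligned the rest to the Kabuli chickpea genome by TopHat2 2.1.1, assembled loci with Cufflinks 2.2.1 and estimated FPKM with Cuffdiff (2.2.1 per the labels, another version in the paper). The deposited FPKM give a group's libraries as 1 combined value at each locus, and the scaling between libraries is not given in the sources used here. The read number of each library is not given in the sources used here. The columns hold no spread between libraries, so no interval or test was computed, and the study's own Cuffdiff test is not used.

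The plain FPKM ratio of ST salinity stress to ST control was taken at loci with FPKM of at least 1 in either, without a pseudocount. Loci past 1.5-fold were counted, including those listed at 0 in the other group. Mean FPKM of both ST groups set the expression classes, with edges at 1, 5, 20 and 100. The text names the genes that the paper names by number, the 10 largest ratios per direction at FPKM of at least 5, the 5 highest loci listed at 0 per direction, the 3 largest FPKM differences per direction, the 5 most abundant loci and the longest runs of consecutively numbered changed loci. Others are marked as looked up after their values were seen. The loci and lists were chosen with earlier results of these data known. Alternatives were other filters, pseudocounts of 0.1 and 1, a 2-fold threshold, and median-ratio or upper-quartile scaling of the columns. The steps were tested on simulated data, with changes planted only at loci of FPKM 5 or more in ST control, so weaker loci were not covered. Python 3.11.15, numpy 2.4.6, pandas 2.3.3 and matplotlib 3.10.9 were used. No identifier of the reference gene table matched a deposited locus, so no sequences or coordinates are given.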

Additional observations from a re-analysis of the deposited data

Results flagged for a closer look

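Of 67 loci named by the rules, 10 were at least 1.5-fold changed in opposite directions in the ST and SS genotypes, with FPKM above 0 in all 4 groups. They are 22.2% of the 45 named loci that were past 1.5-fold in ST and above 0 in all 4 groups, and most of the named loci were picked for large ST values or differences. Over all such loci of the ST roots, 268 of 2519 (10.6%) went in opposite directions, 180 of them higher and 88 lower in ST. Over all loci, more were higher than lower in ST (7.79% and 5.63%), and fewer in SS (4.11% and 5.69%). In the ST classes of 1.5-fold to 2-fold and 2-fold to 4-fold, loci changed the same way in SS outnumbered those changed the opposite way. Each genotype has 1 combined value per group, so the difference between the genotypes was not tested.

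Higher under stress in the ST genotype and lower in SS were 6 loci. The ST log2 ratio minus the SS log2 ratio was 7.26 for Ca_14770, 5.08 for Ca_12134, 2.42 for Ca_04731, 1.99 for the MATE efflux gene Ca_02410, 1.78 for the transmembrane protein gene Ca_13970 and 1.52 for Ca_04735. Lower in the ST genotype and higher in SS were 4 loci, with differences of -2.95 for Ca_18462, -4.19 for XLOC_016025, -4.23 for XLOC_015951 and -5.01 for XLOC_012599. In Ca_14770 the SS log2 ratio was -0.61, near the limit of 0.58 for a 1.5-fold change. For Ca_12134 the FPKM was 0.497 in SS salinity stress, 1.03 in SS control and 0.318 in ST control. Its difference thus rests on values near or under FPKM 1.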

How the results depend on the processing

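The number of ST loci past 1.5-fold was 2712. It became 4723 without a filter on FPKM, 1493 with FPKM of at least 5 in either ST group and 1025 at a 2-fold threshold, and stayed within 1.5 times the count under the other alternatives (1923 to 2682). The share of changed loci that were higher was 58.0% and lay between 53.0% (upper-quartile scaling) and 62.5% (FPKM of at least 5). Among changed loci with a mean FPKM of 5 to 20 or of 1 to 5, the majority direction depended on the scaling. The median ST log2 ratio was 0.04 and became 0.01 and 0.0007 with median-ratio and upper-quartile scaling. Of 228 log2 ratios of 57 named loci under pseudocounts and scalings, 18 moved by more than 1.5-fold, 17 of them with a pseudocount of 1. Ca_04735 and XLOC_027065 were no longer past 1.5-fold. None of these ratios could reverse, so their unchanged directions are no check. An equal pseudocount keeps the direction, and the scalings shifted the ST ratios by less than the smallest named ratio. With only loci of 1 gene name, the share of lower loci followed by a lower locus was 6.77%, against 12.0% over all loci. Ratios of loci near FPKM 1 rest on an unknown number of reads. No paired analysis was possible because the deposited columns combine both libraries of a group, and no library could be left out.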

Other observations

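The assembly numbers its loci consecutively, so that each changed locus of the ST roots can be set beside its next-numbered locus. Of 1164 higher loci whose next-numbered locus also reached FPKM 1, that next locus was higher in 162 (13.9%) and lower in 66 (5.67%), beside 7.87% higher over all 15321 neighbouring numbers. Of 815 lower loci, the next was lower in 98 (12.0%) and higher in 70 (8.59%), beside 5.51% lower over all. With single-name loci only, the shares with the same direction were 10.9% for higher loci, beside 6.82% over all such loci, and 6.77% for lower loci, beside 4.23%. The longest run of higher loci had 5 members, Ca_04731 to Ca_04735. Their FPKM in ST salinity stress and ST control was 8.77 and 3.15 for Ca_04731, 13.6 and 7.23 for Ca_04732, 12.7 and 4.78 for Ca_04733, 2.56 and 0.223 for Ca_04734, and 3.62 and 2.25 for Ca_04735. In the SS genotype Ca_04731 and Ca_04735 were lower under stress and Ca_04734 was higher. The longest run of lower loci was XLOC_027062 to XLOC_027065, 4 loci without a gene name, between 1.52-fold and 3.24-fold lower.

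A single gene name was attached to 2 or more loci in 138 cases, covering 280 loci, so that loci sharing a name can be compared within the same libraries. Without coordinates it is not known whether such loci are parts of 1 gene. For 34 of these names at least 1 locus was past 1.5-fold. Over all 20212 loci, 13.4% were past it, a share of loci and not of names. All loci of the name were past it in the same direction in 1 case, and the loci went in opposite directions in 1. In 32 some loci were past 1.5-fold and the others within it. With 86.6% of all loci within 1.5-fold, such a mix is common, so these counts are given as a description.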
